A study of Mus musculus with 2 samples.

Results

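Citric acid cycle enzymes, the malate-aspartate exchange enzymes and the reactions that feed or drain the cycle were examined as 1 set of 30 genes, chosen by name, of 55536 annotated genes. The data are total RNA sequencing of the gastrocnemius, a calf muscle of mostly fast fibres, with 1 library from each of 2 male mice. The animals were 8 to 10 months old and of the strain B6CASTF1/J, a cross between the laboratory strain C57BL/6J and the wild-derived CAST/EiJ. The labels name no treatment, so the samples form 1 group. The labels number the animals 2 and 4 under 1 shared donor identifier; they are called replicate 1 and replicate 2 here. The tissue was whole muscle, so vessel, fat, nerve and blood cells were in the samples beside the fibres.

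The cycle oxidises acetyl groups from sugars and fats in the mitochondrial matrix and passes the electrons to NADH and to succinate dehydrogenase. Malate dehydrogenases and aspartate aminotransferases, each with a cytosolic and a mitochondrial form, carry the electrons of cytosolic NADH into mitochondria as malate. In skeletal muscle the flux through the cycle rises steeply during contraction, and several of its dehydrogenases respond to calcium.

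The depth was 36792611 estimated counts over all genes for replicate 1 and 37752249 for replicate 2. Each library was quantified by 2 methods in the deposited files; values are from the first unless the second is named. Intervals printed with ratios cover counting error only. Levels are in TPM, a relative abundance corrected for transcript length, and values after ± are SDs over 2 animals. Markers of fast fibres summed to 81362 and 88196.5 TPM and those of slow fibres to 1912 and 1276 TPM, so the libraries carried the transcripts of a fast muscle. Because the RNA came from whole tissue, fewer cells of a type and less RNA per cell cannot be told apart.

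The set was abundant, with similar median levels in the 2 animals. The median member stood at 121 TPM in replicate 1 and 123 TPM in replicate 2, against a median of 8.13 TPM over the 9815 nuclear protein-coding genes with 1 TPM or more in both. Of the 30 members, 29 reached 1 TPM and 18 reached 100 TPM in both animals, and 18 lay among the 500 most abundant of 22015 nuclear protein-coding genes. Together they held 0.892% and 0.873% of nuclear protein-coding TPM.

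**Figure D1:**
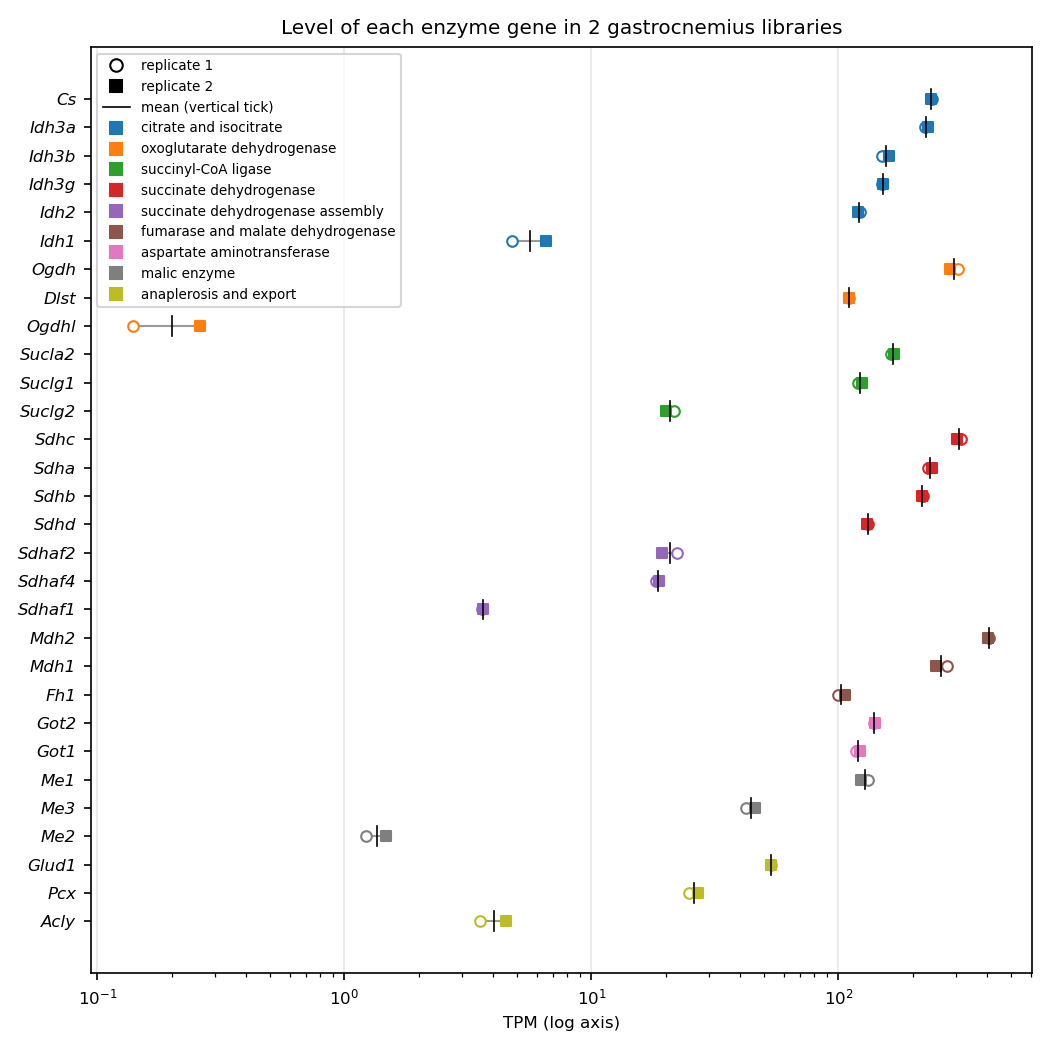
Level of each of the 30 genes in TPM on a log axis, grouped by enzyme; open circles are replicate 1, filled squares replicate 2 and the tick their mean. Most cycle enzymes sit between 100 and 406 TPM with the 2 animals nearly on top of each other, while Idh1, Acly, Sdhaf1, Me2 and Ogdhl lie below 10 TPM.

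Citrate synthase and the isocitrate dehydrogenases open the cycle. Cs (ENSMUSG00000005683.8, chromosome 10, 128337734 to 128362479 in mm10), which joins acetyl-CoA to oxaloacetate, held 239 TPM in replicate 1 and 237 TPM in replicate 2. The NAD-linked isocitrate dehydrogenase has a catalytic alpha subunit and the beta and gamma subunits, and the complex holds more alpha than beta or gamma. Its alpha gene Idh3a (ENSMUSG00000032279.11, chromosome 9, 54586334 to 54604661) held 224 and 230 TPM. Idh3b held 151 and 160 TPM and Idh3g, on the X chromosome, 150.3 and 151 TPM. Over all transcripts Idh3a exceeded Idh3b by 1.46-fold (log2 ratio 0.54 ± 0.04, n = 2) and Idh3g by 1.502-fold (0.59 ± 0.02). Idh3b and Idh3g overlapped between animals. In the second quantification the log2 ratio of Idh3a to Idh3g was smaller, at 0.18, and that to Idh3b was 0.47. On complete coding transcripts alone the order turned, with Idh3a at 129 and 135 TPM, Idh3b at 148 and 157 TPM and Idh3g at 146 and 148 TPM. Idh3a was the lowest of them in the second quantification too, at 88.3 and 90.8 TPM on complete coding transcripts.

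The NADP-linked forms split sharply by compartment. Idh2 (ENSMUSG00000030541.16), the mitochondrial form, held 122 and 120.0 TPM. Idh1 (ENSMUSG00000025950.16, chromosome 1, 65158616 to 65186500), the cytosolic and peroxisomal form, held 4.77 and 6.52 TPM. Idh2 exceeded Idh1 by a log2 ratio of 4.42 ± 0.33, or 21.3-fold. Of all isocitrate dehydrogenase TPM, the 3 NAD-linked subunit genes held 34.4%, 23.6% and 22.9%, Idh2 18.4% and Idh1 0.854%.

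**Figure D2:**
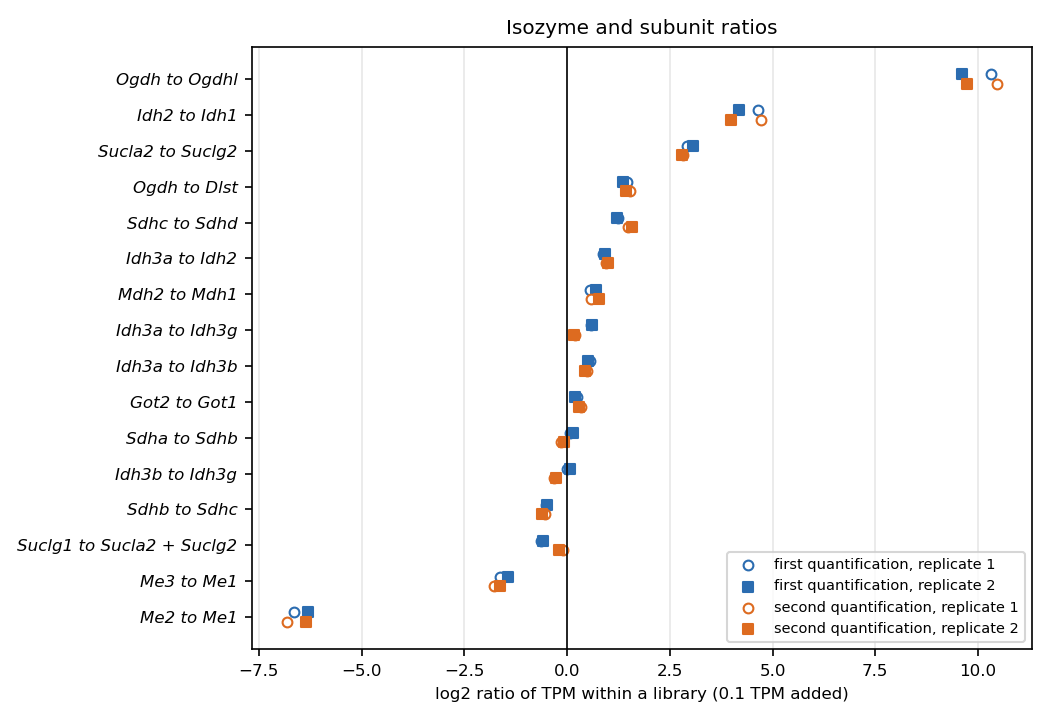
Log2 ratios of TPM between isozymes or subunits within each library, for replicate 1 (circles) and replicate 2 (squares) and for the first (blue) and the second (orange) quantification. Ogdh to Ogdhl, Idh2 to Idh1 and Sucla2 to Suclg2 are the largest positive ratios, and Me2 to Me1 is the most negative at −6.47.

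The oxoglutarate dehydrogenase complex makes succinyl-CoA. Ogdh (ENSMUSG00000020456.17, chromosome 11, 6291633 to 6356642), its calcium-sensitive E1 component, held 304 and 282 TPM. Its paralog Ogdhl, known mainly from brain and liver, held 0.14 and 0.26 TPM on 13 and 27 counts. The log2 ratio within the libraries was 9.96 ± 0.49 with the 0.1 TPM added to both, 7.94 with 1 TPM added and 10.58 with none, so its size rests on the added value, while nearly all E1 transcript was Ogdh under each. Dlst, the E2 component, held 110.35 and 110.59 TPM, 2.65-fold below Ogdh (1.41 ± 0.08).

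Ogdh transcripts carry 1 of 2 alternative coding exons at the fourth position, and some add a further exon behind the shorter one. The exons are shown because the transcripts of this muscle used almost exclusively 1 of them. They were read from the M21 transcripts on the plus strand of mm10; capitals mark the alternative exon, and the lower-case ends are up to 15 bases of the exons joined to it.
Ogdh long exon (chromosome 11, 6316978 to 6317080, 103 bases): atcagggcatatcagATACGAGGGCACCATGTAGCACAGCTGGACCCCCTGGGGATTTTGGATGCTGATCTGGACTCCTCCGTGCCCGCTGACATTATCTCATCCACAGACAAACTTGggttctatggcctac
Ogdh short exon (chromosome 11, 6316765 to 6316855, 91 bases): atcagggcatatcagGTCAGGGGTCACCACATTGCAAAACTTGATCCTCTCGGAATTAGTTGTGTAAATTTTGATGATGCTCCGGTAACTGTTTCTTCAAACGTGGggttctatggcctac
Ogdh extra exon (chromosome 11, 6324878 to 6324922, 45 bases): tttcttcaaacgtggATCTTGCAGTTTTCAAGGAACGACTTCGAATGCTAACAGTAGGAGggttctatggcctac

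The long exon is part of Ogdh-201 and Ogdh-204, with 3069 coding bases each, and the short exon is part of Ogdh-202 (3057 coding bases) and Ogdh-203 (3102 coding bases), the latter with the extra exon. Among these 4 transcripts, those with the long exon held 99.2% of TPM in both replicate 1 and replicate 2. In the second quantification their share was 99.2% and 99.4%, so both methods placed under 1% of this TPM on the short exon. Ogdh-201 alone held 76.8% and 79.0% of all Ogdh TPM, and Ogdh-204, which differs in its noncoding start and in the length of its last exon, 11.6% and 6.59%. The deposited credibility bounds for Ogdh-204, 28.2 to 43.6 TPM in replicate 1 and 12.1 to 24.3 TPM in replicate 2, did not overlap. The animals were closer in the second quantification, which gave Ogdh-204 11.4% and 8.61%, or 35.3 and 24.5 TPM. Ogdh-207 and Ogdh-206, annotated fragments that end before the alternative exon, held 8.28% and 10.9%, and 1.84% and 2.35%. The second quantification gave these fragments more, at 20.2% ± 0.571 and 11.0% ± 1.28, and Ogdh-201 less, at 58.1% ± 0.308.

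Succinyl-CoA ligase pairs a shared alpha subunit with an ADP-linked or a GDP-linked beta subunit. Suclg1, the alpha gene, held 120.04 and 125 TPM. Sucla2 (ENSMUSG00000022110.13, chromosome 14, 73525319 to 73596142), the ADP-linked beta gene, held 164 and 168 TPM, and Suclg2, the GDP-linked one, 21.6 and 20 TPM. The ADP-linked form therefore made up 88.9% ± 0.700 of beta TPM, 7.95-fold above the GDP-linked form (2.99 ± 0.10). Only 79.4% of the 31-base words of Suclg2 transcripts occurred in no other gene, and the pseudogene Gm15163, which shares most of the rest, held 115 and 104 counts against 1338 and 1437 for Suclg2.

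Succinate dehydrogenase links the cycle to the respiratory chain and holds its 4 subunits in equal numbers. The flavoprotein gene Sdha held 230 and 240.1 TPM and the iron-sulfur gene Sdhb 219 and 217 TPM. The membrane anchor genes stood on either side of them, Sdhc (ENSMUSG00000058076.12, chromosome 1, 171127165 to 171150603) at 315 and 303 TPM and Sdhd at 132 and 131 TPM. Sdhc thus exceeded Sdhd by 2.35-fold (1.23 ± 0.03), a gap larger than the spread between animals, while Sdha and Sdhb differed by 1.08-fold (0.10 ± 0.05). On complete coding transcripts alone Sdhc stood closer to Sdhd, at 212 and 197 TPM. The order of Sdha and Sdhb turned in the second quantification, which gave a log2 ratio of −0.11.

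The assembly factors were less abundant than the subunits they serve. Sdhaf1, which helps insert iron-sulfur clusters into Sdhb, held 3.62 and 3.64 TPM. Sdhaf2, which is needed for the flavin of Sdha, held 22.2 and 19.3 TPM. Sdhaf4, which binds Sdha with its flavin, held 18.3 and 18.8 TPM. All 3 lay below the least abundant subunit gene, Sdhd, in both animals, with a summed level of 44.1 and 41.7 TPM against 896 and 891 TPM for the 4 subunits.

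Fumarase and malate dehydrogenase close the cycle. Fh1 (fumarase) held 99.3 and 106 TPM. Mdh2 (ENSMUSG00000019179.10, chromosome 5, 135778480 to 135790398), the mitochondrial malate dehydrogenase, was the most abundant of the 30 genes over all transcripts, at 408 and 404 TPM. On complete coding transcripts alone it held 232 and 246 TPM and Ogdh 271 and 244 TPM, ranges that overlap. Mdh1 (ENSMUSG00000020321.15, chromosome 11, 21556787 to 21572367), the cytosolic form of the malate-aspartate exchange, held 275 and 247 TPM. Over all transcripts Mdh2 exceeded it by 1.56-fold (0.64 ± 0.10). On complete coding transcripts alone Mdh1 held 133 and 124 TPM. The aspartate aminotransferases were closer to each other. Got2, the mitochondrial form, held 139 and 141 TPM and Got1, the cytosolic form, 117 and 123 TPM, a ratio of 1.16-fold (0.22 ± 0.03). For Got2, 79.7% of 31-base words were unique, and its processed copy Got2-ps1 held 1085 and 1367 counts against 8390 and 9724 for Got2. How reads of the shared words were divided between them was not tested, so the level of Got2 is uncertain by an unknown amount.

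The malic enzymes turn malate into pyruvate. Me1 (ENSMUSG00000032418.15, chromosome 9, 86581371 to 86695953), the cytosolic NADP-linked form, held 132 and 124 TPM. Me3 (ENSMUSG00000030621.17, chromosome 7, 89632392 to 89854359), the mitochondrial NADP-linked form, held 42.4 and 46.0 TPM over all its transcripts, and Me2, the mitochondrial NAD-linked form, 1.22 and 1.48 TPM. Me1 thus held 73.7% ± 2.04 of malic enzyme TPM, Me3 25.5% ± 1.92 and Me2 0.778% ± 0.120. Of the 31-base words of Me1, 70.0% were unique, and the gene Gm7049, which shares the most of them, held 125 and 162 counts against 9700.2 and 10501 for Me1.

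Genes that fill or drain the cycle were lower. Glud1, glutamate dehydrogenase, held 53.34 and 53.27 TPM. Pcx, pyruvate carboxylase, which makes oxaloacetate, held 24.9 and 26.9 TPM. Acly (ENSMUSG00000020917.17, chromosome 11, 100476353 to 100528000), which splits exported citrate for lipid synthesis, held 3.53 and 4.53 TPM. Ordered by level, the 30 genes formed 29 neighbouring pairs, and in 9 of them the ranges of the 2 animals overlapped; Sdhc and Ogdh, Cs and Sdha, and Acly and Sdhaf1 were among these pairs.

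Gene levels hid large differences in which annotated transcripts were measured. M21 lists 161 transcripts for the 30 genes. They were sorted into coding transcripts with complete ends, coding fragments whose start or end the annotation marks as not found, transcripts annotated as targets of nonsense-mediated decay, transcripts with a retained intron, and other noncoding transcripts. The median member had 91.2% of its TPM on complete coding transcripts, beside a median of 89.1% over 6154 nuclear protein-coding genes with 5 TPM or more in both animals. The share was below 50% in 3 of 30 members (Sdhaf2, Mdh1 and Me3), beside 13.5% of those 6154 genes. In the second quantification it was below 50% in 5 members (Idh3a, Sdhaf2, Fh1, Me3 and Glud1), beside 17.7%. Mdh1 stood at 50.4% there.

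**Figure D3:**
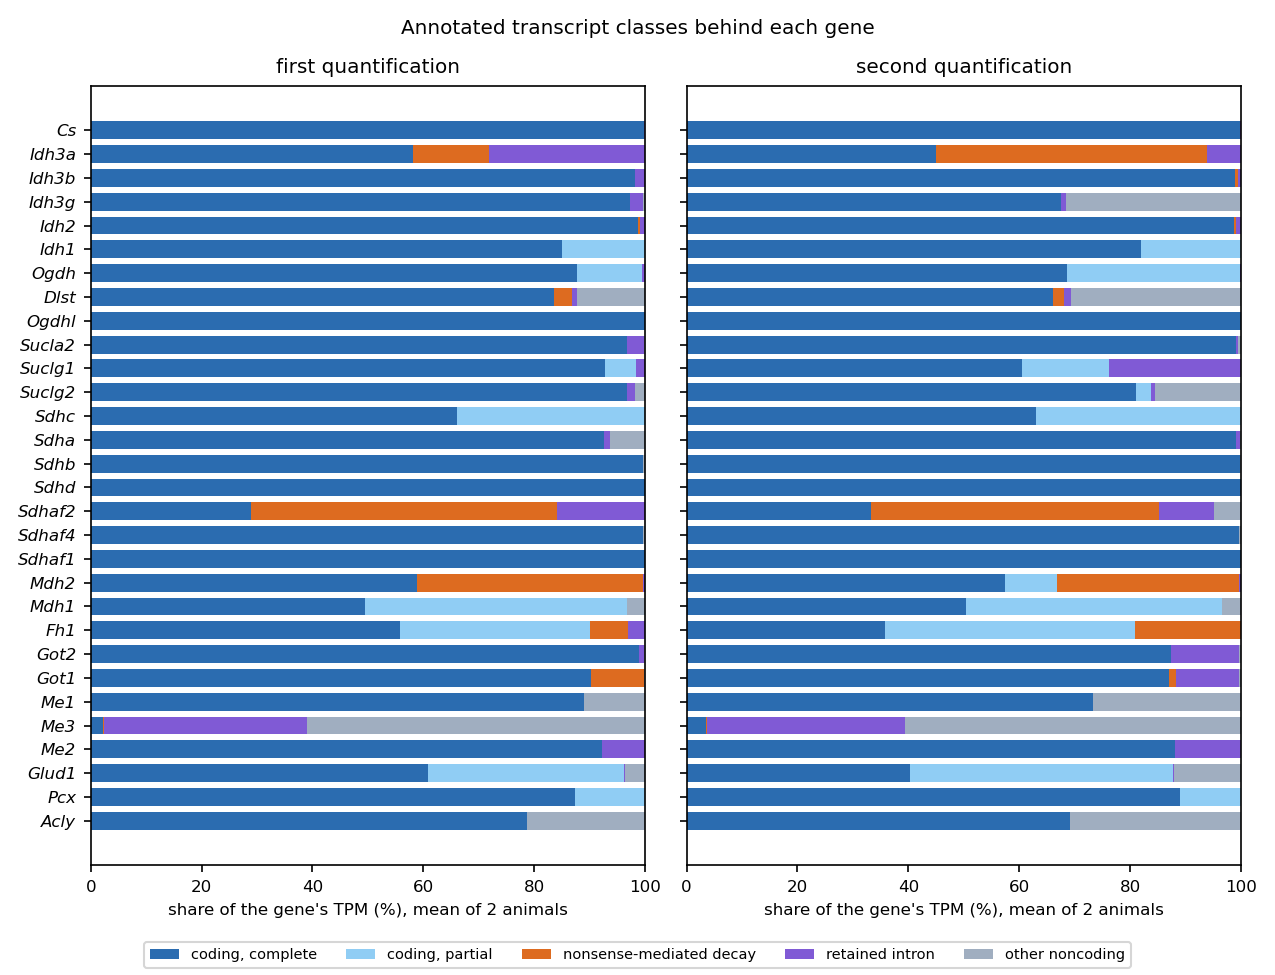
Share of each gene's TPM on 5 classes of annotated transcripts, as the mean of 2 animals, in the first (left) and the second (right) quantification. Me3 has almost no complete coding transcript in either panel, Sdhaf2 and Mdh2 carry large shares of decay targets in both, and Idh3a, Idh3g and Suclg1 differ between panels.

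Me3 was the extreme case. Its only complete coding transcript, Me3-202, held 0.90 and 1.04 TPM, or 2.13% and 2.27% of the gene, and 2.97% and 3.94% in the second quantification. A share below 10% was found in 1.85% of the 6154 genes. The noncoding Me3-201 held 59.2% and 58.5% and the retained-intron transcript Me3-203 35.8% and 36.6%. Counted on complete coding transcripts alone, Me1 held 98.1% ± 0.167 of malic enzyme TPM, Me2 1.06% ± 0.0619 and Me3 0.837% ± 0.105.

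The exons of these 2 noncoding transcripts overlap the coding one. Me3-203 holds 1380 of the 1812 coding bases of Me3-202 and Me3-201 holds 1003, and together they hold all 1812. Me3-202 ends in an exon of 2624 bases and Me3-201 in one of 227 bases. Me3-201 starts with an exon that no other annotated Me3 transcript holds, shown here because it marks the leading transcript; reads on it were not counted separately (chromosome 7, 89829282 to 89829340, 59 bases, plus strand; capitals mark this exon and the lower-case letters the start of the exon it joins, which Me3-202 also has). Whether reads from a transcript outside the annotation were placed on these entries was not tested.
Me3 start exon: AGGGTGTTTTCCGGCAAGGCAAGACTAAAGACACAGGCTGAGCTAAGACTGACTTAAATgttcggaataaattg

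Mdh2 divided its TPM between a coding and a decay-annotated transcript. The complete Mdh2-201 held 56.8% and 60.8%, or 232 and 246 TPM. Mdh2-203, which lacks the second exon, held 42.7% and 38.8%, or 174 and 157 TPM. The deposited credibility bounds for Mdh2-203 were 158 to 182 TPM in replicate 1 and 142 to 163 TPM in replicate 2. The second quantification also put much on it, at 32.9% ± 1.63. The missing exon has 169 bases, not a multiple of 3, and the annotated coding part shrinks from 1014 to 153 bases. These transcripts also differ elsewhere, with lengths of 1456 and 1112 bases and last exons of 315 and 322 bases, so the share of the exon by itself was not measured. The exon is shown because Mdh2-203 lacks it (chromosome 5, 135783305 to 135783473, plus strand, in capitals, with 15 bases of each neighbouring exon).
Mdh2 exon: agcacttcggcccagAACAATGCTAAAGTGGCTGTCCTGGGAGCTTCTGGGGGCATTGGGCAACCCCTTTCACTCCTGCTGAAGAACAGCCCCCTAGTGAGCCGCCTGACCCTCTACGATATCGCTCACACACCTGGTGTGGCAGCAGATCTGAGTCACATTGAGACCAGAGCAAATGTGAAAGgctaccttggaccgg

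Sdhc was split over a coding exon too. Sdhc-201, which lacks the third exon of the longer form, held 60.7% and 57.6% of Sdhc TPM. The longer Sdhc-202 held 6.55% and 7.32%, and Sdhc-203, a fragment that includes this exon, 32.7% and 35.04%. In the second quantification the shares were 56.7% ± 5.34, 6.30% ± 0.0555 and 37.0% ± 5.39. Here the exon has 102 bases, a multiple of 3, and the coding part falls from 507 to 405 bases without it. Sdhc-201 also ends in a last exon of 499 bases and Sdhc-202 in one of 2741 bases, so these transcripts differ in 2 places at once, and the share of the exon by itself was not measured. Its sequence is given on the minus strand (chromosome 1, 171143558 to 171143659, in capitals, with 15 bases of each neighbouring exon).
Sdhc exon: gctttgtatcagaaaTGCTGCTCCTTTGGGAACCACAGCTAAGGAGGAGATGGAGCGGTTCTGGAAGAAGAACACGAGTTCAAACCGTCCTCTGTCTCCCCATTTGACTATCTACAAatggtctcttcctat

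Sdhaf2 was led by a decay-annotated transcript in both methods. Sdhaf2-206 held 36.25% and 45.4%, and 43.0% ± 9.62 in the second quantification, while complete coding transcripts summed to 5.58 and 6.32 TPM. The gene Cpsf7 overlaps Sdhaf2 on the other strand and held 473 and 495 counts, against 862 and 935 for Sdhaf2. The strand setting of the counting is not given in the sources used here, and the part of that overlap in the Sdhaf2 level was not tested. In all, 12 members overlap a gene on the other strand, among them Idh3b with Nop56 (419 and 489 counts).

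Several members depended on the method. For Idh3a the first quantification put 58.1% ± 0.849 on the coding Idh3a-205, and the second 48.9% on the decay-annotated Idh3a-204 and 45.1% on Idh3a-205. For Fh1 the leading transcript was Fh1-201 at 55.8% ± 4.60 or the fragment Fh1-205 at 45.2%. The same held for Pcx, with Pcx-201 at 46.4% ± 7.98 or Pcx-204 at 54.3%, and for Glud1, with Glud1-201 at 60.9% ± 0.891 or, on average over the animals, the fragment Glud1-205 at 47.5%. The methods named the same leading transcript in 24 of the 28 members with more than 1 transcript. The animals shared it in 27 of 28, and the exception was Mdh1, where Mdh1-201 and the fragment Mdh1-202 were nearly level at 48.5% and 48.7% in replicate 1 and at 50.3% and 45.8% in replicate 2. Acly-201 fell from 64.6% in replicate 1 to 31.8% in replicate 2, on 247 and 176 estimated counts, and Acly-203 went from 0 to 30.7%. The credibility bounds of Acly-201, 0.682 to 2.19 and 0.214 to 1.89 TPM, overlapped. Its deposited levels were 2.28 and 1.44 TPM, and the level in replicate 1 lies above its own bounds.

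By contrast, single transcripts accounted for nearly all of Cs (Cs-201, 99.8%), Sdhb (Sdhb-201, 99.6% ± 0.0990), Idh2 (Idh2-201, 98.6% ± 0.672) and Idh3b (Idh3b-201, 98.1% ± 0.290) in both quantifications. For Got2, Got2-201 held 98.9% ± 0.820 in the first quantification and 87.3% in the second.

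The animals were then compared on counts scaled to library size. A gene is described as apart when one animal exceeded the other by at least 25% and the counts averaged 100 or more, which held for 28 of the 30 members in the latter respect. With 1 library per animal there is no test of this difference. By this rule 2 members were apart, Idh1 and Acly, both higher in replicate 2, beside 13.6% of the 9516 genes measured at that depth. Of the 28 members, 23 averaged at least 1000 counts, a depth at which 5.87% of 3117 genes were apart. The share of 2 in 28 is therefore not read as below the background. Counted by direction, 2 were higher in replicate 2, beside 6.77% of genes, and 0 in replicate 1, beside 6.79%. At a limit of 1.1-fold 3 members were apart, beside 43.2% of genes, all of them higher in replicate 2 (21.3%) and 0 in replicate 1 (21.9%). At 1.5-fold 0 were apart, beside 3.39% in either direction, 1.67% higher in replicate 2 and 1.72% higher in replicate 1.

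Idh1 had 235 counts in replicate 1 and 363 in replicate 2, or 6.65 and 9.26 CPM (counts relative to scaled library size). Its log2 ratio was 0.48, with a counting interval of 0.24 to 0.72, or 1.39-fold. Acly had 276 and 433 counts, or 7.81 and 11.0 CPM, and a log2 ratio of 0.50, with an interval of 0.28 to 0.72, or 1.41-fold. Both rank among the least abundant members and both intervals lie above 0, but both also reach below the 25% limit. In the same library 5 of 8 adipocyte markers measured at this depth were apart and higher, and none was apart and lower. Of all genes at this depth, 6.77% were apart and higher in replicate 2 and 6.79% in replicate 1. These shares are also the background for the marker counts that follow. The 9 markers of the adipocyte list summed to 134 and 145 TPM, with none at 0. Its most abundant members Fabp4 and Plin4 held 55.7 and 64.0 TPM, and 54.8 and 47.6 TPM. Of 7 smooth muscle and pericyte markers 6 were apart and higher in replicate 2, with sums of 104 and 138 TPM and Rgs5 and Acta2 the most abundant at 58.4 and 66.5 TPM, and 21.8 and 27.9 TPM. Endothelial markers were higher in 3 of 7, with sums of 43.3 and 52.4 TPM and Cdh5 and Pecam1 the most abundant at 11.0 and 12.6 TPM, and 10.5 and 11.7 TPM. The part of these cells in the ratios of Idh1 and Acly was not tested.

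**Figure D4:**
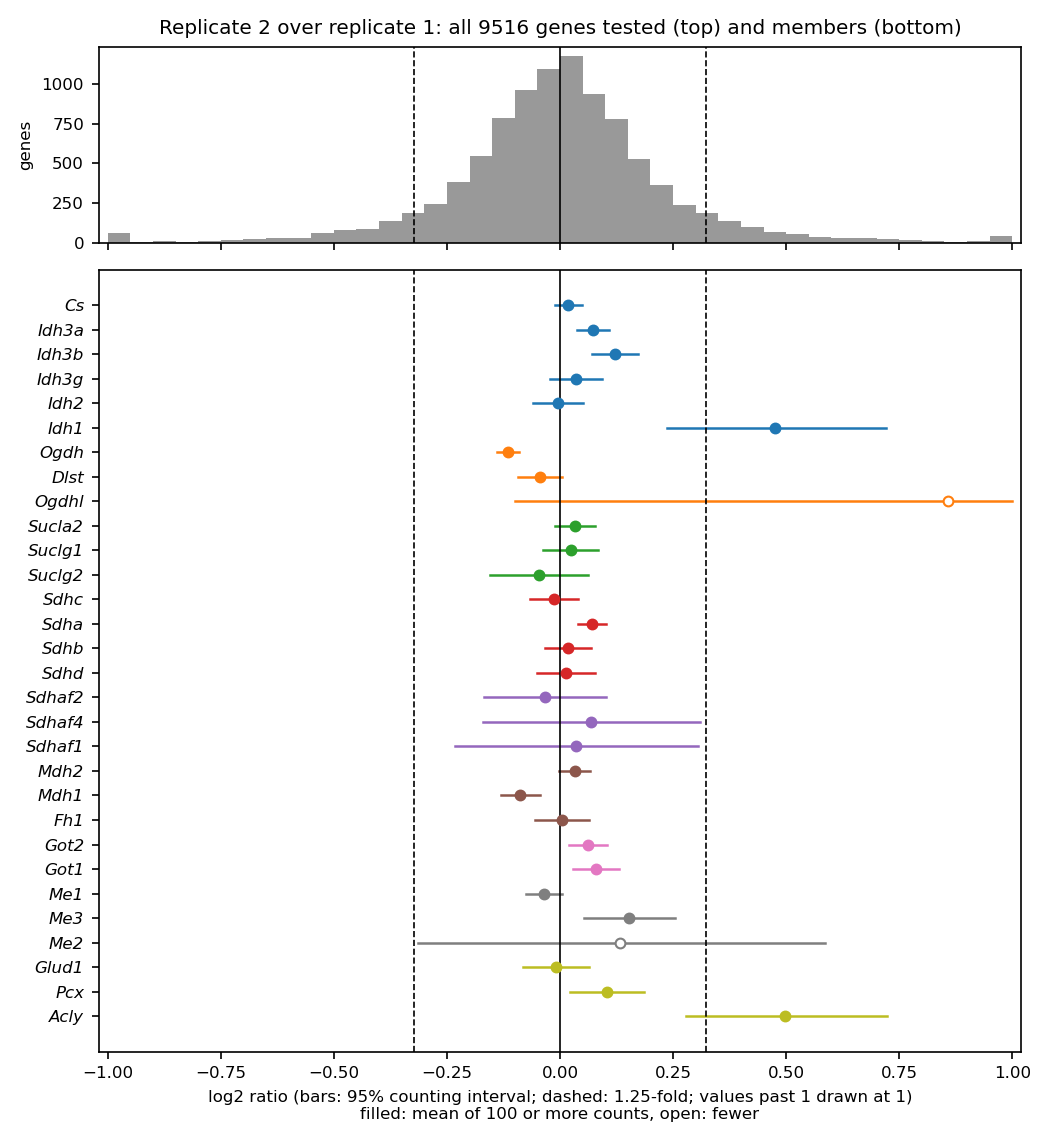
Log2 ratio of replicate 2 to replicate 1 for the 9516 genes deep enough for the comparison (top, values past 1 drawn at 1) and for each member with its 95% counting interval (bottom); dashed lines mark the 25% limit. Only Idh1 and Acly among the filled points lie past a dashed line, and Ogdhl and Me2 (open) had fewer than 100 counts.

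The abundant members were set beside genes above the same count minimum. Among the 23 members that averaged at least 1000 counts, 0 were apart, beside 5.87% of 3117 genes of that depth. In a set of 23 this is not read as below the background. The log2 ratios of these members ran from −0.11 to 0.15. The median absolute log2 ratio of these 23 was 0.04, beside 0.08 over the 3117 genes. Beyond the minimum of 1000 counts the 3117 genes were not matched to the members in depth, so no smaller spread is claimed for the set. Ogdh was the lowest, with 27939 and 28632 counts, or 791 and 730.2 CPM, and a log2 ratio of −0.11 (interval −0.14 to −0.09). Mdh1 followed at −0.09 (−0.13 to −0.04). Me3 was the highest, with 1464 and 1807 counts and a log2 ratio of 0.15 (0.05 to 0.25), and Idh3b had 0.12 (0.07 to 0.17). In 11 of the 28 members the counting interval left out 0, in 9 of them above and in 2 below (Ogdh and Mdh1). This split by direction holds only for the library-size scaling used here (edgeR's TMM): with total counts Ogdh had 0.00 and Mdh1 0.03, and with spike-ins Idh3a, Idh3b, Sdha, Got1, Got2 and Pcx of those above turned negative.

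The direction of the whole set depended on scaling. Its median log2 ratio was 0.03, beside 0.00 over all genes measured at that depth, with 19 members above 0 and 9 below. With total counts as the scale, 27 were above 0 and the set's median was 0.14; with the spike-in RNAs, 25 were below 0 and the median was −0.12. These scalings moved the median of all genes by 0.11 and −0.15, so no shift of the set is claimed against the other genes. Idh1 and Acly stayed past the limit and higher in replicate 2 under each scaling.

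Slow fibre markers stood further apart between the animals than the cycle genes. All 10 slow fibre markers were apart and higher in replicate 1, with a median log2 ratio of −0.58. They were led by Myl2 at 340 and 243 TPM and Myl3 at 274 and 199 TPM. Of all genes at that depth 13.6% were apart, 6.77% higher in replicate 2 and 6.79% higher in replicate 1. None of the 11 fast fibre markers was apart, at a median of 0.10, with Tnnt3 at 13178 and 14851 TPM and Atp2a1 at 12183 and 12300.0 TPM. Over the same libraries the 4 succinate dehydrogenase genes had log2 ratios from −0.01 to 0.07 and Cs had 0.02 (−0.01 to 0.05). The part of fibre type in the members' ratios was not tested. Fibroblast markers summed to 141 and 146 TPM, led by Dcn (70.55 and 75.6) and Col1a2 (20.6 and 22.3), with 0 of 6 apart. Erythroid markers summed to 223 and 251 TPM, led by Hbb-bs (88.7 and 97.5) and Hba-a1 (71.3 and 83.8), with 0 of 3 apart. Macrophage markers summed to 10.3 and 10.1 TPM, led by Lyz2 (5.18 and 6.3) and Csf1r (1.94 and 1.18), and 1 of 4, Cd163, was apart and higher in replicate 1. Schwann cell markers summed to 21.75 and 23.75 TPM, with Mbp at 12.2 and 12.9 TPM, and 1 of 2 was apart and higher in replicate 2.

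Neighbouring reactions, a list of 27 genes that supply or carry cycle intermediates, held both abundant mitochondrial and scarce genes. The pyruvate carrier genes Mpc1 and Mpc2 held 201 and 214 TPM and 128 and 139 TPM. The carriers of the malate-aspartate exchange were also high, Slc25a12, the aspartate-glutamate carrier, at 165 and 169 TPM and Slc25a11, the oxoglutarate-malate carrier, at 117 and 117 TPM. Gpt2, mitochondrial alanine aminotransferase, held 118 and 111 TPM.

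Of the 21 entries of that list with enough counts, 1 was apart and higher in replicate 2 and 0 were higher in replicate 1, beside 6.77% and 6.79% of genes. It was Pck1, a gluconeogenic enzyme that is also an adipocyte marker, at 1.1 and 2.31 TPM with a log2 ratio of 1.18. The next largest ratios were −0.31 for one of the 2 identifiers of Nnt, the proton-pumping transhydrogenase, and −0.27 for Glul, glutamine synthetase, followed by 0.26 for Gpt, the cytosolic alanine aminotransferase. The other Nnt identifier went the opposite way at 0.26, and in the second quantification the ratios of these identifiers were 0.08 and 0.01, so no difference in Nnt can be read from them. Got1l1 had 0 counts in both animals, which allows up to 0.0815 and 0.0795 CPM.

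Promoter windows of 300 bases, from 250 before to 50 after a start, were in the RefSeq table (GRCm38.p6) for 27 of the 30 members, with 35 windows. They were searched on both strands for 5 short words. CCAAT was present in 60.0% of member windows beside 37.4% of all 32851 windows, and GGGCGG in 68.6% beside 35.7%. AAGGTCA was present in 3 windows, those of Ogdh, Sdhd and Got1, or 8.57% beside 4.72%. This word preceded by TC, the longer form known for oestrogen-related receptors, overlaps it and was found in 1 window, that of Sdhd, beside 0.423% of all. The palindromic NRF1 word was in 0 member windows beside 0.971%. These are letter matches only. The 35 windows come from 27 members, and the 32851 windows were not matched to the members in expression. No excess is therefore claimed for the set.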

How the data were processed

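Total RNA (300 ng per library, ribosomal RNA reduced, spike-ins added, per the labels) was sequenced in 2 libraries. Per the deposited README files, reads were processed on mm10 with GENCODE M21. Per the file headers, the first gene and transcript tables carry RSEM's column names and the second transcript table kallisto's. Aligner, versions and strand setting are not given in the sources used here. Expected counts, as the authors deposited them, are unnormalized read estimates. The deposited TPM values are scaled by length and to a fixed sum over all entries. The deposited percent column is a transcript's share of its gene, and the credibility bounds are the authors'.

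Expected counts were rounded to whole numbers here; library sizes came from edgeR 4.0.16's TMM factors (R 4.3.3), with a prior of 1 count for log2 ratios of replicate 2 to replicate 1. Ratios of TPM used an added 0.1 TPM. Counting intervals are exact (Clopper-Pearson, 95%), and a count of 0 was bounded by 3 counts. The counts of the 2 libraries differed by more than sampling noise (a chi-square of 138 per degree of freedom), and they were kept as separate samples; only the animal numbers say that the animals differ. Alternatives used DESeq2 1.42.0 size factors, total counts, spike-ins, other minimums, priors, folds and the second quantification. Scaling and ratios were tested on simulated data. Words of 31 bases were counted on M21 transcripts. Tables and figures used pandas 2.3.3 and matplotlib 3.10.9 under Python 3.11.15, and intervals scipy 1.17.1.

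The 30 members and all lists were chosen with earlier results of these data known. The text names all members, the 6 neighbouring genes with the highest TPM, the 4 with the largest ratio, those at 0, the 2 most abundant genes of each marker list, leading transcripts and those of Ogdh; Cd163 and the other transcripts described were chosen after their values were seen. Reads from CAST/EiJ alleles were counted on the C57BL/6J reference, and the effect of this on levels was not tested. Some genes that this rule names are not reported here. Protein sequences were not used here.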

Additional observations from a re-analysis of the deposited data

How the results depend on the processing

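The 25% limit gave 2 members apart under each scaling, prior and the second quantification, 3 with a minimum of 10 counts or none (Ogdhl added, on 13 and 27 counts), 0 at 1.5-fold (beside 3.39% of genes) and 3 at 1.1-fold (Me3 added, beside 43.2%). The median log2 ratio of the set became 0.14 with total counts and −0.12 with spike-ins. The median member level was 112 TPM in the second quantification and 114 TPM on complete coding transcripts only, the latter an alternative chosen after seeing the data, against 122 TPM. The share of the set was 0.383% when all TPM was the denominator. The median share of the leading transcript was 86.8%, from 84.9% to 87.1% without one of the animals, and 70.4% in the second quantification; the cause was not tested. Of 16 isozyme ratios, 14 kept their sign in the second quantification; Sdha to Sdhb and Idh3b to Idh3g, did not, at −0.11 and −0.29 there against 0.10 and 0.04. No ratio between animals can be formed without one of them, so no such value is given with an animal left out. No paired analysis was possible because there is 1 group. Depth limits Ogdhl, Me2, Idh1 and Acly, with 13, 78, 235 and 276 counts in replicate 1: their counting intervals span the 25% limit.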
